A study of Bos taurus with 20 samples.

Results

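The 6 genes here are grouped as interferon-induced, with products that act in or at cell membranes: IFI6, IFI27, LY6E, SHISA5, RTP4 and PLSCR2. They were chosen by name, as every clone of the 18KB array whose single gene symbol in the array's gene table is one of these. This gave 12 of the 1536 clones of the array, 5 for IFI6, 2 each for IFI27 and LY6E and 1 each for SHISA5, RTP4 and PLSCR2, or 6 of the 86 genes that the table names with a single symbol. The companion 18KO array held 0 clones of these genes by the same rule. Whether interferon induces each of the 6 was not tested here.

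Type I interferons bind a receptor on the cell surface, and the kinases and transcription factors behind it switch on a large set of genes with antiviral and immune functions. In ruminants the elongating conceptus secretes interferon tau, a type I interferon that acts on the endometrium before attachment and prevents the return to the cycle. Many of the induced proteins are soluble enzymes or RNA sensors, while the 6 proteins here are small membrane proteins or membrane-bound factors. IFI6 and IFI27 belong to one family of short hydrophobic proteins found at mitochondria and the endoplasmic reticulum. LY6E is held in the plasma membrane by a lipid anchor, SHISA5 (also called Scotin) lies in the endoplasmic reticulum and nuclear membrane, RTP4 helps receptors reach the cell surface, and PLSCR2 is a member of the scramblase family, whose best known protein, PLSCR1, moves phospholipids between the leaflets of a membrane.

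The animals were Simmental heifers (Deutsches Fleckvieh), all brought into heat with the prostaglandin analogue cloprostenol and slaughtered on day 18. The 4 pregnant heifers, aged 17 to 20 months, had been inseminated with thawed sperm and carried a conceptus, which was taken out before sampling, and the 6 control heifers, aged 18 to 22 months, had received the supernatant of the same bull's sperm after centrifugation and carried none. Bulk intercaruncular endometrium was cut from the ipsilateral horn, in its caudal section. The 18KB array carries clones from a library enriched for transcripts that were more abundant in pregnant animals, so its clones are not a random sample of genes, and clones were sequenced chiefly when they differed between these same animals.

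Values below are spot intensities as deposited, with no unit, averaged over the clones of a gene on the log2 scale. Each change is the pregnant mean minus the control mean in log2 units ± its standard error in limma (n = 4 and 6). Calls required both a 2-fold change and an adjusted p below 0.01. The adjustment ran over 1420 rows, which are the 86 named genes and the 1334 clones without a single symbol. The 10 columns had medians from 1.39 to 3.18, with every pregnant column above every control column, and the correlation of log2 values within a group was between 0.935 and 0.982. Of 12 epithelial and 12 stromal markers, 0 and 3 had a named clone on the 18KB array and 2 and 6 on the 18KO array, and none of 25 leukocyte, 6 endothelial or 5 blood markers had one (0 on both), so the cell makeup could be checked only in part. The 3 stroma markers of the 18KB array, all collagens and all called lower, summed to 107 to 436 in pregnant animals and 622 to 1415 in controls, and the 6 on the 18KO array, 3 called lower and 1 higher, to 69.5 to 275 and 328 to 1086. The 2 smooth muscle markers on the 18KO array were called lower, with sums of 4.81 to 9.33 and 14.7 to 33.3. The 2 epithelial markers on the 18KO array went opposite ways and neither was called, CLDN4 with a log2 fold change of 1.96 ± 0.58 (limma adjusted p = 0.0384) and CLDN10 with one of -1.93 ± 0.77 (limma adjusted p = 0.118). Their sums of 19.6 to 33.4 and 7.16 to 20.8 therefore give no common direction. The part of these differences in the values of the 6 genes was not tested. In whole tissue, more cells of a type and more RNA per cell cannot be told apart.

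All 6 genes were called higher in pregnant endometrium. RTP4 rose 7.44-fold, IFI27 5.90-fold, IFI6 5.42-fold, LY6E 4.78-fold, SHISA5 3.12-fold and PLSCR2 2.16-fold. In each of the 6 genes every pregnant animal was above every control animal on the deposited scale. On that scale every pregnant column also had a higher median than every control column. By rank within the column the groups overlapped for PLSCR2, as given below. Calls of this direction were made in 15.6% of all 1420 rows and in 77.9% of the 86 named genes, and 22.3% of all rows had every pregnant animal above every control. The count of 6 in 6 is therefore close to what the named genes of this array show in general, and, since naming followed from differences in these animals, it is not independent evidence of the direction.

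**Figure D1:**
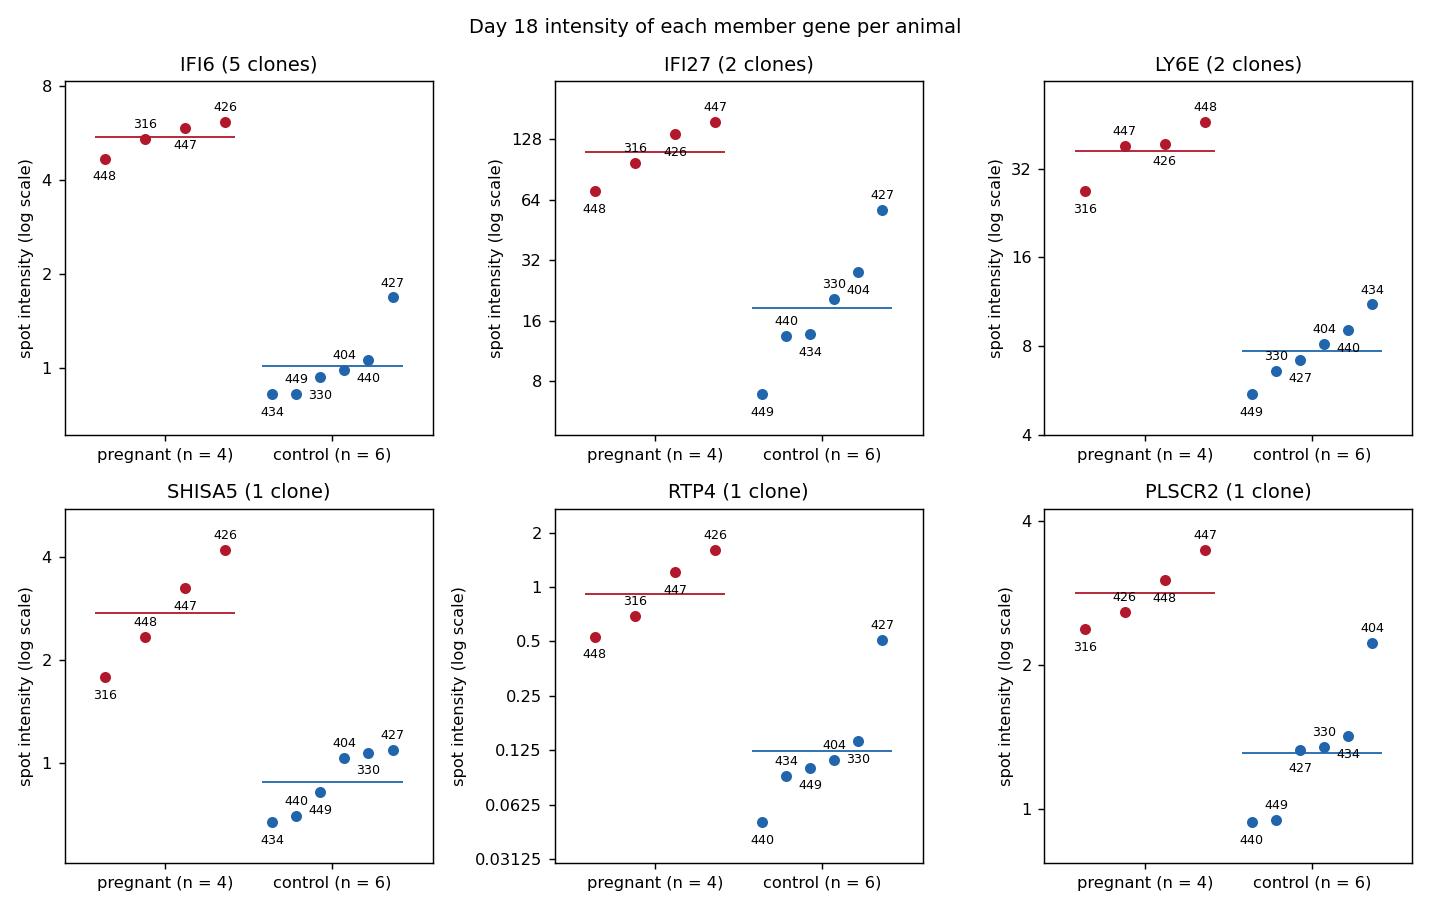
Spot intensity of each gene (log scale; geometric mean of its clones) in each of 4 pregnant and 6 control animals, with the animal's number beside its point, points set side by side by size, and a line at the mean of the log2 values. In all 6 panels the lowest pregnant animal is above the highest control, by 2.79-fold for IFI6 but by 1.04-fold for RTP4 and 1.07-fold for PLSCR2.

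IFI6, a short membrane protein known for limiting cell death and for protecting the endoplasmic reticulum against viral use, had mean intensities of 5.41, 6.14, 5.88 and 4.68 in pregnant animals 316, 426, 447 and 448. The controls 330, 404, 427, 434, 440 and 449 had 0.929, 0.982, 1.68, 0.820, 1.06 and 0.821. The pregnant animals lay within 1.31-fold of each other, and the nearest control, 427, was 2.79-fold below the lowest of them. The log2 fold change was 2.44 ± 0.21 (limma adjusted p = 3.22e-05), and 57 of the 1420 rows had a larger one.

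The 5 clones of IFI6 differed greatly in brightness and in the size of the change. Clone 18KB-13-C12 had intensities of 146, 159, 145 and 131 in pregnant animals 316, 426, 447 and 448 and of 7.81, 8.15, 13.3, 3.83, 8.27 and 4.07 in controls 330, 404, 427, 434, 440 and 449, a 21.0-fold difference (log2 4.39 ± 0.32). Its pregnant values were tight, with an SD of 0.12 on the log2 scale (n = 4), against 0.69 in controls (n = 6). The other 4 clones ran from 1.27 to 7.32 in pregnant animals and from 0.20 to 2.99 in controls, with changes from 2.45-fold to 5.40-fold. In the clone with 5.40-fold, 18KB-04-D07, 4 of the 6 controls lay under 0.32, the 10th percentile of all values of the array. The smallest was that of 18KB-09-G11 (log2 1.29 ± 0.25, limma adjusted p = 0.00182), where controls had 0.54 to 1.17 and pregnant animals 1.27 to 1.90. The brightest clone alone would give IFI6 a value of 4.39 and the median of its clones one of 1.70, so the size of the IFI6 change depends on which clones stand for the gene. Whether the spotted fragments differ in length, in the part of the transcript they hold or in related transcripts that they bind was not tested.

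IFI27, the relative of IFI6 that is also known as ISG12, had intensities of 97.4, 136, 156 and 70.3 in pregnant animals 316, 426, 447 and 448. In controls 330, 404, 427, 434, 440 and 449 it had 20.5, 27.9, 56.7, 13.7, 13.4 and 6.88. The controls thus spanned 8.24-fold, the pregnant animals 2.21-fold, and control 427 came within 1.24-fold of pregnant 448. The log2 fold change was 2.56 ± 0.49 (95% interval 1.49 to 3.63, limma adjusted p = 0.00209).

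The 2 clones of IFI27 gave closely similar pictures. Their log2 changes were 2.70 ± 0.49 for 18KB-15-H08 and 2.43 ± 0.51 for 18KB-16-E04, and the log2 difference between the clones varied from animal to animal with an SD of 0.23 (n = 10). Within groups the mean of the clones varied between animals with an SD of 0.88, and the clones around that mean with one of 0.14, so the wide spread of the IFI27 controls was shared by both spots. In the annotation of RefSeq (assembly ARS-UCD2.0) IFI27 lies between ISG12(B) and IFI27L2, which carry the names of the same family, and their share in the signal was not tested.

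LY6E, a lipid-anchored surface protein of the Ly6 family known to affect the entry of viruses, had intensities of 26.8, 38.9, 38.4 and 46.2 in pregnant animals 316, 426, 447 and 448. The controls 330, 404, 427, 434, 440 and 449 had 6.60, 8.11, 7.16, 11.1, 9.04 and 5.48. The groups were 2.42-fold apart at their nearest points, and the controls spanned 2.02-fold. The log2 fold change was 2.26 ± 0.23 (limma adjusted p = 3.57e-05), from 2.06 ± 0.20 for clone 18KB-05-C11 and 2.46 ± 0.27 for clone 18KB-10-B08.

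**Figure D2:**
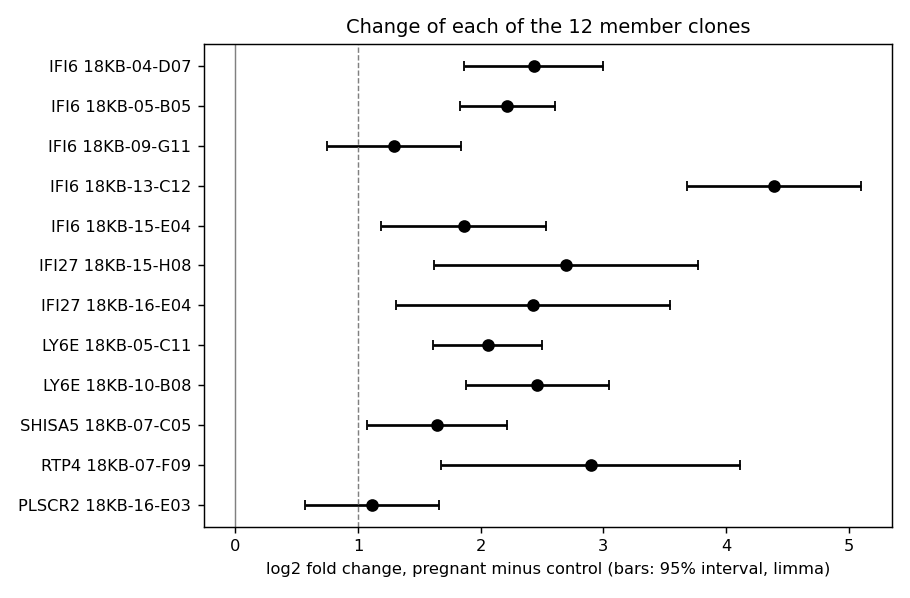
Log2 fold change, pregnant minus control, of each of the 12 clones with its 95% interval from limma (4 pregnant, 6 control animals); the dashed line marks a 2-fold change. The clones of IFI27 and of LY6E lie together, while 18KB-13-C12 of IFI6 at 4.39 is apart from the other IFI6 clones.

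SHISA5, a protein of the endoplasmic reticulum and nuclear membrane first described as a target of p53, was read from 1 clone. Its intensity was 1.78, 4.21, 3.24 and 2.33 in pregnant animals 316, 426, 447 and 448 and 1.07, 1.03, 1.09, 0.67, 0.70 and 0.82 in controls 330, 404, 427, 434, 440 and 449. The controls lay within 1.63-fold of each other, and the lowest pregnant animal, 316, was 1.63-fold above the highest control. The log2 fold change was 1.64 ± 0.26 (limma adjusted p = 0.000589). The call was lost when the columns were given equal medians (0.81) or were quantile normalized (0.85), where the adjusted p of limma stayed under 0.01 (0.00602 and 0.00434) but the fold fell under 2.

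RTP4, a receptor transporter protein of the secretory pathway, had the dimmest clone and, on the deposited scale with clones averaged per gene, the largest change. Pregnant animals 316, 426, 447 and 448 had intensities of 0.69, 1.61, 1.21 and 0.53. Controls 330, 404, 427, 434, 440 and 449 had 0.14, 0.11, 0.51, 0.09, 0.05 and 0.10, and 5 of these 6 lay under the 10th percentile of all values of the array, 0.32. Control 427 was 3.64-fold above the next control and all but reached pregnant 448. The log2 fold change was 2.90 ± 0.55 (95% interval 1.70 to 4.09, limma adjusted p = 0.00195). With a floor at the 10th percentile it was 1.41 and was still called, but below the changes of IFI27 (2.56), IFI6 (2.39), LY6E (2.26) and SHISA5 (1.64) with that floor. With the pseudocount it was 1.73, and after quantile normalization 1.92 beside 2.21 for IFI27, so RTP4 was not the largest under these 3 settings. With the brightest clone per gene IFI6 was also larger, at 4.39 on the deposited scale.

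PLSCR2, of the scramblase family, showed the smallest change, again from 1 clone. Its intensity was 2.38, 2.59, 3.49 and 3.01 in pregnant animals 316, 426, 447 and 448, and 1.35, 2.23, 1.33, 1.42, 0.94 and 0.95 in controls 330, 404, 427, 434, 440 and 449. Control 404 was just under pregnant 316, while the other 5 controls lay at 1.42 or below. The log2 fold change was 1.11 ± 0.25 (limma adjusted p = 0.00471). The call was lost with equal column medians (0.28, limma adjusted p = 0.278), after quantile normalization (0.31), with age as a covariate (1.11, limma adjusted p = 0.013), and without any 1 of pregnant 426 (1.16), 447 (1.01) or 448 (1.09) or of control 440 (1.02) or 449 (1.02). In RefSeq PLSCR2 lies between PLSCR5 and PLSCR1, and whether the clone also binds transcripts of these relatives was not tested.

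The scaling of the columns bears on all 6 genes. Over all 1536 clones the median log2 fold change was 0.44, and it became -0.39 with equal column medians and -0.26 after quantile normalization. With equal medians IFI6 had 1.61, IFI27 1.73, LY6E 1.43 and RTP4 2.07, and with quantile normalization 1.70, 2.21, 1.69 and 1.92. Under both, all 4 were still called, while SHISA5 and PLSCR2 were not. Every one of the 6 stayed above 0 under each scaling tried. At the level of clones, 12 of 12 were called as deposited, against 20.5% of all clones of the array, 8 with equal medians, beside 152 of all 1536 clones, and 9 with quantile normalization, beside 178. The clones lost with equal medians were those of SHISA5 and PLSCR2 and the IFI6 clones 18KB-09-G11 (0.46) and 18KB-15-E04 (1.03). In all 12 every pregnant animal was above every control animal on the deposited scale, as in 26.7% of all clones. The rank of a clone within its column is not changed by a scaling factor. By this rank the groups overlapped in the PLSCR2 clone, with the highest control at percentile 56.0 and the pregnant animals at 46.1 to 53.1. The IFI6 clones 18KB-09-G11 and 18KB-15-E04 overlapped too, with the highest control at 36.5 and 58.9 and the lowest pregnant animal at 33.8 and 57.4. The other clones did not overlap by rank.

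**Figure D3:**
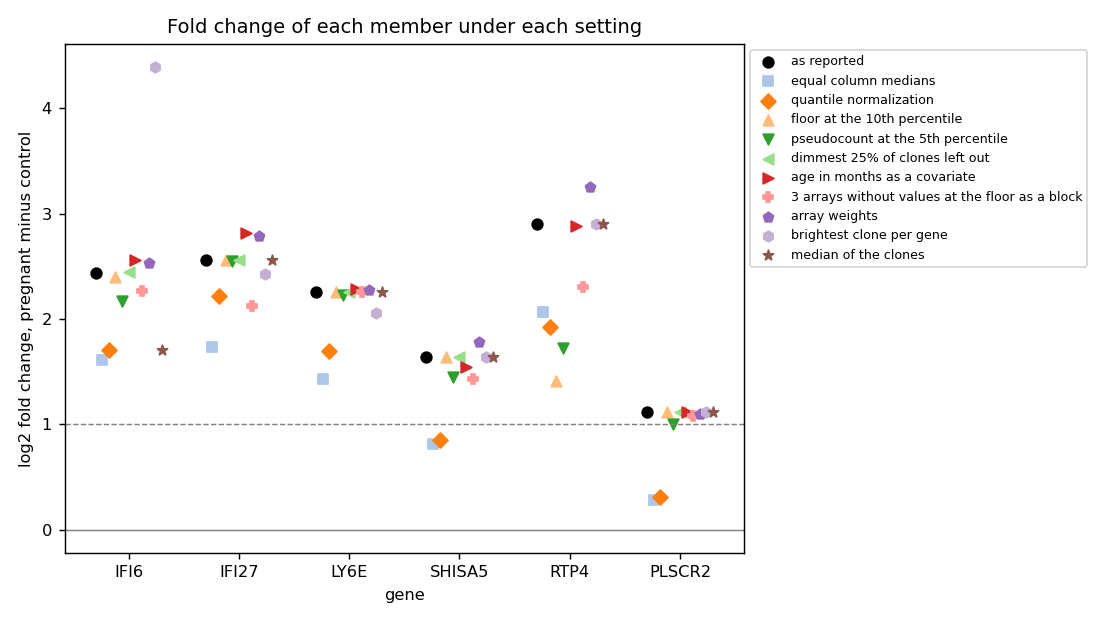
Log2 fold change of each gene (4 pregnant against 6 control animals) as reported and under 10 other settings, with a dashed line at a 2-fold change. IFI27, LY6E and IFI6 stay above 1 throughout; SHISA5 and PLSCR2 fall below it with equal column medians and quantile normalization, and RTP4 moves from 2.90 to 1.41 with a floor at the 10th percentile.

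Among the rows of the array the 6 genes lay in the upper part of the distribution without being its extreme. On the deposited scale RTP4 had 35 of 1420 rows above it, IFI27 49, IFI6 57, LY6E 72, SHISA5 140 and PLSCR2 256. The place of RTP4 rests in part on control values under the 10th percentile, since its change was 1.41 with a floor there. Among the 86 named genes, 14 had a larger change than RTP4 and 68 a larger one than PLSCR2. The median change of the 6 genes was 2.35, beside 1.85 for the named genes and 0.38 for all rows.

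**Figure D4:**
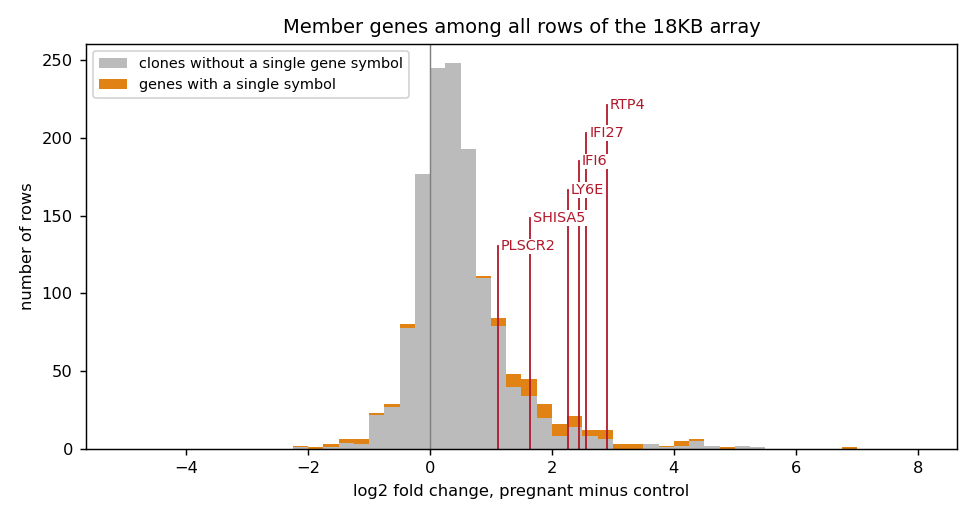
Number of rows of the 18KB array by log2 fold change, pregnant minus control, stacked for clones without a single symbol and named genes; vertical lines of differing height mark the 6 genes. The lines run from 1.11 for PLSCR2 to 2.90 for RTP4, to the right of the median of all rows, 0.38.

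Whether the 6 genes rose by different amounts was asked for all 15 pairs, from the log2 difference of the genes within each animal, which scaling factors of a column cannot change. No pair passed (0 of 15) in a two-sided exact permutation test over 210 splits after Benjamini-Hochberg adjustment at 0.05, and 6 had an unadjusted p under 0.05. The smallest p that 210 splits allow in this test is 0.00476, so 1 pair alone could not pass after adjustment over 15 pairs. The rise of IFI6 exceeded that of PLSCR2 by 1.33 ± 0.28 on the log2 scale (exact permutation p = 0.00952, adjusted p = 0.0714, 95% interval 0.56 to 2.08), and that of LY6E exceeded it by 1.14 ± 0.24 (exact permutation p = 0.00952, adjusted p = 0.0714, interval 0.48 to 1.80). In both pairs all 4 pregnant animals had a larger difference than any control. IFI6 and IFI27 differed by -0.12, with an interval from -1.09 to 0.87 that leaves room for a sizeable difference either way. The pairs with IFI6 used the mean of its 5 clones. With the brightest clone per gene IFI6 had 4.39 beside 2.43 for IFI27, and with the median of the clones 1.70 beside 2.56. Pairs were not tested with these summaries. Every pair with IFI27 or RTP4 had a wider interval than any pair without them, as with IFI27 and LY6E, at 0.30 with an interval from -1.11 to 1.58.

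In the settings where pairs were tested, the count that passed depended on 1 animal and on the floor. Without control 427, 6 of the 15 pairs had an adjusted p under 0.05 by exact permutation over 126 splits. These were PLSCR2 against IFI6, IFI27, LY6E and RTP4, with differences of 1.47, 1.77, 1.12 and 2.19 in favour of the other gene, IFI27 against SHISA5, with a difference of 1.18, and SHISA5 minus RTP4, with one of -1.60. With a floor at the 10th percentile 3 pairs passed: IFI6 and LY6E against PLSCR2 and IFI6 against RTP4, where RTP4 now had the smaller rise by 0.98.

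The order of the animals was not the same in every gene. Control 427 was the highest control for IFI6, IFI27, SHISA5 and RTP4, by 1.59-fold, 2.04-fold, 1.02-fold and 3.64-fold over the next, but 3 controls were above it for LY6E and 3 for PLSCR2. It was also the highest control for 19 of the 21 other named interferon genes, against 41.9% of all rows. Without it the log2 fold changes were 2.58 for IFI6, 2.88 for IFI27 and 3.31 for RTP4, and 2.24 for LY6E. The column of control 427 had the highest median of the controls, 1.90, against 1.385 to 1.685 in the others. Its column held 0 values at or below 0.01, as did those of pregnant 426 and 447, where the other 7 held 9 to 16. Its 3 stroma markers on this array summed to 1415, the highest of all animals, against 622 to 1059 in the other controls. The part of any of these in its interferon genes was not tested.

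The order of the pregnant animals in LY6E differed from that in IFI6 and RTP4 by the place of 448. Pregnant 448 had the highest LY6E, at 46.2, and the lowest IFI6, IFI27 and RTP4. It was the lowest pregnant animal in 43.4% of all rows and the highest in 9.37%. Pregnant 426 was the highest for IFI6, SHISA5 and RTP4 and 447 for IFI27 and PLSCR2, while 316 was the lowest for LY6E, SHISA5 and PLSCR2. Pregnant 316 was also the lowest pregnant animal in 37.7% of all rows. The column medians of 316, 426, 447 and 448 were 2.495, 3.045, 3.18 and 2.71, and the values were not rescaled. The part of these levels in the order of the animals was not tested. The trophoblast genes TKDP1, TKDP4 and IFNT2, the 3 of 16 trophoblast markers with a named clone here, summed to 41.7 in pregnant 448 and to 1.44 in pregnant 316, against 0.955 to 1.79 in controls. The sum of pregnant 316 lay within the control range only through control 427. In each of these 3 trophoblast genes pregnant 316 was below control 427 and above every other control. All 6 member genes were above every control in pregnant 316 on the deposited scale. Of the 6, only LY6E was highest in pregnant 448. The part of conceptus RNA in the values was not tested.

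**Figure D5:**
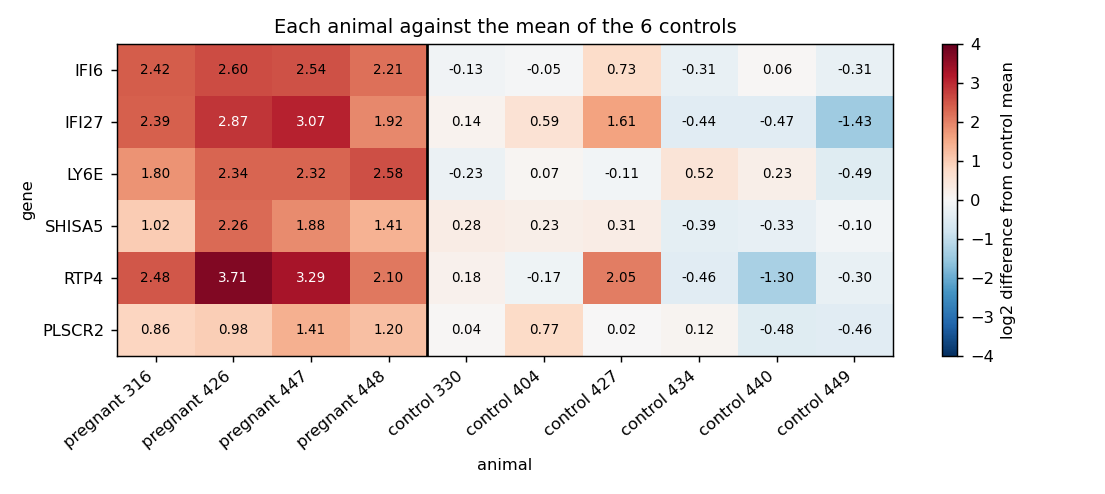
Log2 difference of each animal from the mean of the 6 controls for each gene (rows), with 4 pregnant animals left of the line and 6 controls to its right. Control 427 stands out with 2.05 for RTP4 and 1.61 for IFI27 but has -0.11 for LY6E, and pregnant 448 has the highest value of LY6E, 2.58, and the lowest of RTP4, 2.10.

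The other interferon-stimulated genes of the array rose in the same animals. Of 84 such genes listed besides the 6, 21 had a named clone. All 21 were called higher and 0 lower, and on the deposited scale all 21 had every pregnant animal above every control. Beside these counts stand the 77.9% of named genes and 15.6% of all rows called higher and the 22.3% of rows without overlap. Their median log2 fold change was 2.56, from 1.45 for SHFL to 4.85 for ISG15, beside 2.35 for the 6 membrane-associated genes. The 4 with the smallest p were PARP12, a poly-ADP-ribose polymerase family member (2.80 ± 0.25, limma adjusted p = 3.22e-05), ISG15, a ubiquitin-like modifier (4.85 ± 0.46), UBA7, its activating enzyme (4.20 ± 0.41), and RIGI, a cytoplasmic RNA sensor (3.25 ± 0.33). These genes too were sequenced chiefly because they differed in these animals.

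The named genes nearest to each of the 6 were found by the root mean square difference over the 10 animals, in log2 units, after each gene's control mean was taken off. This difference includes the change between the groups, so genes with like fold changes lie near each other. The 3 nearest of IFI6 (2.44) had log2 fold changes of 2.24, 2.13 and 2.24, and those of PLSCR2 (1.11) had 1.29, 1.29 and 1.51. Shared regulation was not tested. IFI6 was nearest to PARP9 (0.23), ZNFX1 (0.26) and CAPN6 (0.29), where the median over the 85 other named genes was 0.72. IFI27 and RTP4 shared their nearest gene, the locus LOC509283, at 0.41 and 0.45, followed by PARP9 (0.51) and TRANK1 (0.51) for IFI27 and by USP18 (0.52) and RIGI (0.54) for RTP4. LY6E was nearest to ZNFX1 (0.41), the locus LOC781663 (0.43) and TAP1 (0.45). SHISA5 had PSMF1 (0.24), TAP1 (0.26) and B2M (0.27) as its nearest, and PLSCR2 had SAT1 (0.22), SCP2 (0.27) and GABARAPL1 (0.30). None of the 6 had another of the 6 among its 3 nearest genes.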

How the data were processed

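The linear intensity values are those the authors deposited in each array's value table; their background correction and scaling are not stated in the labels or design text. Per the labels' protocols, 33P-labelled cDNA of each animal was hybridised to spotted PCR products. Values below 0.01 were set to 0.01 before log2 was taken. Clone names came from the platform's gene table, and RefSeq's table gave the same symbol for all 6 gene identifiers. Coordinates served only for the order of neighbouring genes in RefSeq and are not printed. Sequences were not used here, so the planned motif and protein comparisons were not made.

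Groups were compared with lmFit and eBayes of limma 3.58.1 (R 4.3.3), per clone (1536) and per gene with unnamed clones kept as rows (1420), with Benjamini-Hochberg adjustment over each table. The fold of 2 and the rate of 0.01 are those the design text names for SAM, which was not run. Pairs of genes were compared by two-sided exact permutation, and their 95% intervals hold the shifts that this test does not reject. Alternatives covered scaling, floor, pseudocount, dim clones, the prior, array weights, age, a block of 3 arrays, summaries of clones, threshold, adjustment and each animal left out. Named genes were the 6 with their clones, the 3 nearest of each, and the 4 interferon genes with the smallest p. The genes, lists and tests were chosen with earlier results of these data known. Plots were made in matplotlib 3.10.9 (Python 3.11.15).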

Additional observations from a re-analysis of the deposited data

Results flagged for a closer look

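Of 36 groups of log2 values tested for a lone sample (the 6 genes and 12 clones in both groups), 2 held one, where chance alone gives about 1 in 20. Of the 36, 6 are repeats, since 3 genes have a single clone, and the means of the other 3 genes share values with their clones. In controls, the IFI6 mean of control 427 was 1.68, while the other controls ran from 0.820 to 1.06, a gap of 0.644 of the group's range on the log2 scale, above the 95% limit of Dixon's test. In pregnant animals, the IFI6 clone 18KB-09-G11 was at 1.27 in pregnant 448, while the others ran from 1.80 to 1.90, a gap of 0.866 of the range on the log2 scale, again above that limit.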

How the results depend on the processing

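In 137 values of the 6 genes under the alternatives, 0 changed direction, 127 kept their call and 10 lost it, 8 of these for PLSCR2 and 2 for SHISA5. The number of genes called ran from 4 with equal column medians or quantile normalization, over 5 with age as a covariate, to 6 with the other floor, the pseudocount, the trended prior, the array weights, the block of 3 arrays, either summary of clones, an adjusted p under 0.05, adjustment over named genes alone, or exact permutation per gene with an unadjusted p under 0.01 in place of limma's adjusted p; it was 5 of the 5 that remained when the dimmest 25% of clones, RTP4 among them, were left out, and 5 to 6 without 1 animal. The number of gene pairs that passed at an adjusted p under 0.05 was 0 as reported and after quantile normalization, 3 with a floor at the 10th percentile, and 0 to 6 without 1 animal, the 6 without control 427. Over all clones, 315 were called higher and 11 lower as deposited, 152 and 174 with equal column medians, and 178 and 139 with quantile normalization; the calls lower were 6 with age, 23 with the block, and 4 to 14 without 1 animal. RTP4, near the bottom of the intensity scale, is limited most by signal. No paired analysis was possible because pregnant and control animals share no number in the labels.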
